A study of Brassica rapa with 6 samples.

Results

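The predicted miRNAs of 20 to 22 bases in Chinese cabbage (Brassica rapa) were taken as the sequences whose names start with PC, read here as predicted candidates since the labels and the table do not explain the prefix, whose deposited mature sequence has 20, 21 or 22 bases, and whose mean normalized count over the 6 libraries was at least 5. They were thus chosen by their deposited level in these same libraries, so their levels are a description. Of 1011 unique sequences in the table, 123 were predicted sequences of these lengths, and 75 of them reached the mean of 5. The study sequenced small RNA from leaf and petiole, the thick stalk that joins the blade to the stem, of wild-type plants grown in a greenhouse, with 3 libraries for each tissue. No treatment and no plant age were given for either tissue. The labels name the whole tissue only, so the cell types in each sample are not known, and a lower value can come from fewer cells of a type or from less RNA per cell.

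A plant miRNA is cut by a Dicer-like enzyme from a hairpin precursor as a duplex of a 5p and a 3p strand, each with a short overhang at its 3′ end. The strand that is kept guides an ARGONAUTE protein to transcripts to which it pairs closely. The first base and the length of a small RNA influence which ARGONAUTE protein takes it up: AGO1, the main miRNA effector, favours sequences that start with U, and AGO2 those that start with A. Young miRNA genes that lie outside the conserved families are often weakly expressed and limited to few species, and candidates of this kind need a matching star strand and precise ends before they are accepted as miRNAs. Whether the candidates described here are miRNAs was not tested.

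The sequences are given as deposited, 5′ to 3′ and with T for U; capitals mark bases 2 to 8, the seed. The first set holds the 6 candidates with the highest mean, since they set most of the summed count.
PC-3p-66_19003: tGGTTTGGatcttggaagtcgt
PC-3p-1067_1995: tGTTCATCacttcatttccca
PC-3p-759_2494: tCACTTCAtttcccactccatt
PC-3p-844_2331: tTTATATTtcgctaagaaccc
PC-5p-445_3612: tGAACCCTtgaataaatcata
PC-5p-2284_1121: tGCGCTGTagcgctgtgagcc
The second set holds the candidates listed at 0 in every leaf library, all of them above 0 in every petiole library.
PC-5p-9832_350: gGAGCACGtatttctatcaatt
PC-3p-28364_146: tTGGTAGTaatgcgtgttccca
PC-3p-43637_102: aTATGATAgtaggagaatgtc
PC-3p-137174_32: aACAATTTcttatattccgct
PC-5p-129447_35: aCTTCGAGaaagtcttccaga
The third set holds those listed at 0 in every petiole library.
PC-3p-39752_110: aGGAAGACaagatcatgctgg
PC-3p-61657_75: tTGTGGAAccgtgtgaatacc
PC-5p-87410_54: tATGTAAAcacttaaagcatt
PC-5p-112137_41: tACAATCGttaaagtacaact
PC-5p-119604_38: tACCAATTatattaatattta
PC-3p-169284_24: tATGTTTTaaatgcttacata

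Most candidates were 21 bases long and began with T or A. There were 59 of 21 bases, 12 of 22 and 4 of 20. T was the first base in 36 (48.0%) and A in 30 (40.0%), while C began 5 and G 4. Among sequences of the same lengths that carry a family name and have a mean of at least 5, T began 45.1% and A 19.2% of 224, with a median GC content of 47.6% against 38.1% in the candidates. Among the 177 predicted sequences of 24 bases, A began 76.3% and T 7.91%. The names divided the candidates into 38 of the 5p and 37 of the 3p side. All 5 candidates that began with C were named 5p.

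**Figure D1:**
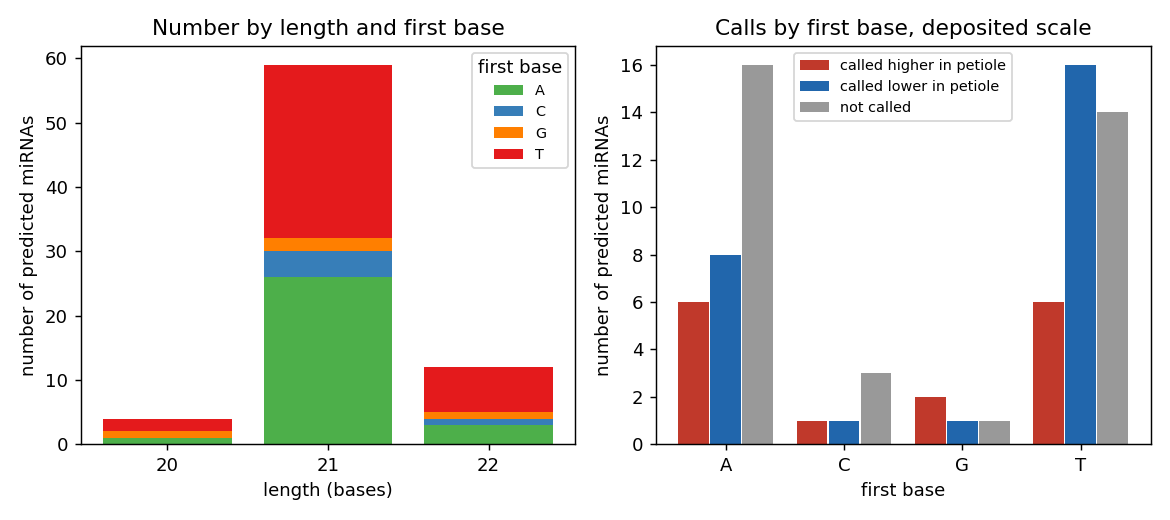
Left, number of predicted miRNAs by length in bases, stacked by first base; right, number called higher in petiole, called lower or not called for each first base (limma, adjusted p under 0.05, deposited scale). The 21-base bar holds 27 sequences starting with T and 26 starting with A. Called lower in petiole were 16 of the 36 starting with T and 8 of the 30 starting with A, against 28.3% of all sequences tested. With every library rescaled to the same total, T had 12 higher and 13 lower, and A 16 higher and 3 lower. Calls by first base were not computed over all sequences, so these counts are a description.

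The candidates held a small part of each library, and 1 sequence held more than all others together. Their summed normalized count was 16176, 15731 and 15522 in the leaf libraries and 6553, 6541 and 6791 in the petiole libraries. This was 2.002% ± 0.0422 of the library total in leaf and 1.52% ± 0.0626 in petiole (SD, n = 3 each). Multiplying a library by a factor cannot move this share, but quantile normalization can. The tissues did not overlap in it (exact permutation test, two-sided, p = 0.10, the smallest that 3 against 3 allows). PC-3p-66_19003 made up 59.7% ± 1.41 of the candidates' sum in leaf and 53.2% ± 0.520 in petiole. Without it, the share of the library total was 0.806% ± 0.0303 and 0.712% ± 0.0264. The mean per candidate ran from 5.09 to 6484 with a median of 16.3; 14 candidates reached 100 and 27 lay under 10. A normalized count of 1 was taken as about 1 read in every library, since the value of 1 read was searched only near 1. That value came out at 0.904 to 1.06, and if it holds, low values rest on few reads.

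The first base and the arm of the summed count differed between tissues. Sequences starting with T made up 88.2% ± 0.571 of the candidates' sum in leaf and 76.5% ± 0.488 in petiole (SD, n = 3 each). The 5p names made up 15.6% ± 0.457 in leaf and 25.9% ± 0.853 in petiole, and the 21-base sequences 32.3% ± 1.02 and 38.9% ± 0.927. In each of these shares the tissues did not overlap (exact permutation test, two-sided, p = 0.10 each, the smallest possible; 6 sums and shares compared). Without PC-3p-66_19003, which starts with T, is named 3p and has 22 bases, the T share was 70.8% and 49.8% and the 5p share 38.8% and 55.3%, so both gaps were wider. The gap in the 21-base share was narrower without it, 80.2% against 83.0%. PC-3p-1067_1995 and PC-3p-759_2494 also start with T and are named 3p. Their means were 1377 and 766 in leaf and 121 and 82.5 in petiole, a large part of what remained. The shares without these sequences as well were not computed, so how far the T and 5p gaps rest on them was not tested.

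Between petiole and leaf, 15 candidates were called higher and 26 lower in petiole, and 34 were not called. The test was limma on log2(normalized count + 1) over all 601 sequences with a mean of at least 5, at a Benjamini-Hochberg adjusted p under 0.05. The 41 calls were 54.7% of the candidates, near the 49.6% called among all sequences tested; the background was 21.3% called higher and 28.3% called lower. All 41 showed no overlap between the tissues, as did 48 of the 75 candidates, against 59.7% of all sequences tested. The median log2 difference, petiole minus leaf, was -0.35 in the candidates and 0.18 over all tested. Sequences of 20 to 22 bases with a family name had 55 higher and 116 lower of 224, with a median of -0.54. Predicted sequences of 24 bases had 26 higher and 5 lower of 177, with a median of 0.55. With every library rescaled to the same total, the named sequences had 103 higher and 73 lower, and the 24-base sequences 102 higher and 5 lower. These classes also differ in level, with a median of the means of 72.6 for the named and 12.5 for the 24-base sequences.

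**Figure D2:**
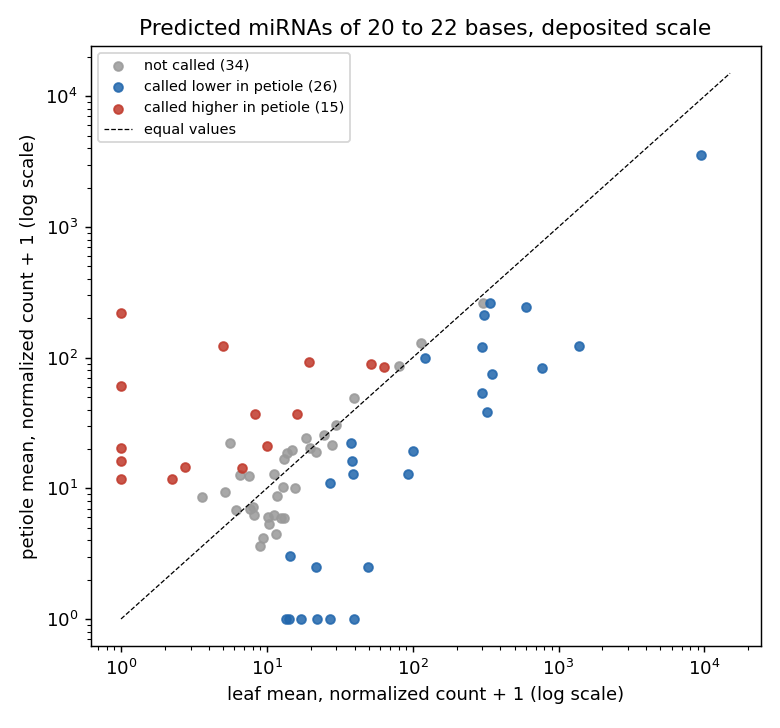
Mean normalized count plus 1 of the 75 predicted miRNAs in leaf (x) and petiole (y), both on log scales, n = 3 libraries each; colours give the limma call and the dashed line marks equal values. The 26 calls below the line include the most abundant sequence at the upper right, and the points on the left and lower edges are the 5 and 6 sequences listed at 0 in leaf and in petiole.

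The filter fixed part of these calls. In 11 candidates the leaf mean was under 5 and in 16 the petiole mean, so that these passed through the other tissue alone; 8 of the 11 were called higher and 9 of the 16 lower. Of the 48 candidates with a mean of at least 5 in both tissues, 7 were called higher, 17 lower and 24 not. The shares called among all sequences split in the same way were not computed, so these counts are a description.

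The library scale moved the balance as well. The library totals on the deposited scale were higher in leaf, and with every library rescaled to the same total 32 candidates were called higher and 18 lower, against 53.4% and 17.8% of all sequences tested (71.2% called). That scale moved the median of all tested sequences from 0.18 to 0.97, and that of the candidates from -0.35 to 0.50. It can only raise petiole against leaf, so none of the 15 higher calls could turn. Of the 26 lower calls 18 stayed lower, 5 were not called and 3 were called higher. With equal totals the tissues did not overlap in 56 candidates, against 76.2% of all sequences. Quantile normalization gave 17 higher and 25 lower, against 23.0% and 24.3% of all sequences (47.3% called). A trimmed mean of log ratios gave 23 higher and 21 lower, against 40.1% and 21.6% (61.7% called). Called the same way on the deposited scale, with equal totals, after quantile normalization and with a trimmed mean of log ratios were 13 higher and 17 lower candidates, against 18.1% and 17.0% of all sequences.

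The 4 most abundant candidates were lower in petiole. Abundant sequences in general lay lower there on the deposited scale. The median log2 difference was -0.55 over all 186 sequences with a mean of at least 50, and -0.56 in the 21 candidates at that level. PC-3p-66_19003 had normalized counts of 9856, 9447 and 9029 in leaf and 3516, 3442 and 3612 in petiole. All petiole values lay below all leaf values, a log2 change of -1.42 ± 0.05 (SE; limma adjusted p = 2.6e-06), and with equal totals it was -0.57 and still called. PC-3p-1067_1995 had 1373, 1379 and 1377 in leaf and 123, 121 and 119.8 in petiole, 11.4-fold lower, with a log2 change of -3.50 ± 0.06 (limma adjusted p = 6.4e-08). PC-3p-759_2494 went from 758, 771 and 769.9 to 88.9, 85.4 and 73.2, a log2 change of -3.20 ± 0.09. These last 2 sequences share a run of 15 bases and were 9.29-fold to 11.4-fold lower in petiole. PC-3p-844_2331 fell from 593 ± 69.8 to 244 ± 9.02 (SD, n = 3), a log2 change of -1.27 ± 0.10. All 4 were also called lower with equal totals.

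Some abundant candidates changed direction or call with the scale, of which PC-3p-1484_1548 and PC-5p-5304_582 were picked after their values were seen. PC-5p-445_3612 had 355, 332 and 320.4 in leaf and 271, 260.0 and 258 in petiole, with no overlap and a log2 change of -0.35 ± 0.07 (limma adjusted p = 0.0066). With equal totals it was called higher instead, at 0.50. PC-5p-2284_1121 had 368, 261 and 272 in leaf and 259, 259 and 268 in petiole, where the ranges overlap, and was not called (limma adjusted p = 0.33). With equal totals it was called higher, at 0.68. PC-3p-1484_1548 (309 ± 8.45 and 211 ± 23.2) and PC-5p-5304_582 (121 ± 3.25 and 97.8 ± 7.59; SD, n = 3) were called lower as deposited, at -0.56 and -0.31, and higher with equal totals, at 0.30 and 0.54. The call of PC-5p-5304_582 was lost without any single library other than petiole replicate 3, with an adjusted p of 0.061 to 0.089.

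The rises in petiole were led by a pair of candidates listed at 0 in leaf. No leaf library had a value above 0 for PC-5p-9832_350, whose petiole values were 218, 210.1 and 228. The same held for PC-3p-28364_146, with petiole values of 60.5, 54.7 and 65.1. Both are 22 bases long and, as shown further on, pair with each other. No fold is given against a tissue listed at 0, because the reads behind a 0 are not known. PC-5p-20820_189 (aTAATTCAgtcgtccgcccga) had 5.71, 3.13 and 3.18 in leaf and 106, 144 and 118 in petiole, 30.7-fold higher, with a log2 change of 4.66 ± 0.26 (limma adjusted p = 1.2e-05).

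The remaining leading rises were of low level. Petiole means were 19.3 ± 3.90 for PC-3p-43637_102, 15.2 ± 4.08 for PC-3p-137174_32 and 10.9 ± 3.05 for PC-5p-129447_35 (SD, n = 3), all of them at 0 throughout leaf. PC-3p-142652_31 had 5.19, 0 and 0 in leaf and 17.0, 14.4 and 9.04 in petiole, with a limma adjusted p of 0.022. It was not called without leaf replicate 2 or 3 or petiole replicate 1 or 2, with an adjusted p of 0.066 to 0.078. PC-5p-247603_13 had 0, 0 and 3.71 in leaf and 11.8, 4.80 and 15.8 in petiole, with a limma adjusted p of 0.028. It was not called without leaf replicate 1 or 2 or petiole replicate 1 or 3, with an adjusted p of 0.073 to 0.092.

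The other 7 candidates called higher were present in both tissues. PC-3p-15538_240 rose from 14, 26.6 and 14.8 in leaf to 91.7, 88.7 and 95.4 in petiole, a log2 change of 2.31 ± 0.25 (limma adjusted p = 0.00031). PC-3p-13189_274 rose from 8.30, 6.25 and 7.41 to 31.7, 43.2 and 33.9, a log2 change of 2.16 ± 0.22. PC-5p-31486_134 (tTGTAAGAtaggactagagat) rose from 14.99 ± 1.81 to 36.0 ± 3.61. In these 3 the tissues lay apart and the call held without any single library. PC-3p-32697_129, PC-5p-9653_355, PC-5p-36566_118 and PC-5p-7936_421 had smaller log2 changes of 1.12, 0.79, 1.08 and 0.43. Each of these lost its call without at least 1 of the libraries, with adjusted p of 0.057 to 0.118 without 1 library for PC-3p-32697_129, 0.056 without leaf replicate 3 for PC-5p-9653_355, 0.087 to 0.105 for PC-5p-36566_118 and 0.077 to 0.106 for PC-5p-7936_421.

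Most of the 8 largest falls on the log2(value + 1) scale were in candidates listed at 0 in petiole. With 5 added instead of 1, PC-3p-1067_1995 (-3.45) and PC-3p-759_2494 (-3.14) had larger falls than any of these, so the order rests on the added value. PC-3p-39752_110 had 32.2, 52.1 and 30.7 in leaf and was listed at 0 in all 3 petiole libraries. PC-3p-61657_75 had 20.7, 35.4 and 22.2 in leaf, and PC-5p-87410_54 had 23.3, 20.3 and 19.6, both at 0 in petiole. PC-5p-112137_41, PC-5p-119604_38 and PC-3p-169284_24 averaged 16.02 ± 4.61, 13.3 ± 6.90 and 12.6 ± 5.61 in leaf (SD, n = 3), and were also listed at 0 in every petiole library. Of these 6 candidates, 5 begin with T. PC-3p-39959_110 (tTTGTTCAtattccatttcc) had 50.8, 42.7 and 51.9 in leaf and 0, 0 and 4.52 in petiole, with a log2 change of -4.80 ± 0.70 (limma adjusted p = 0.0013). PC-3p-124326_37 had 17.6, 21.9 and 22.2 in leaf and 0, 0 and 4.52 in petiole, with a log2 change of -3.60 ± 0.72.

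**Figure D3:**
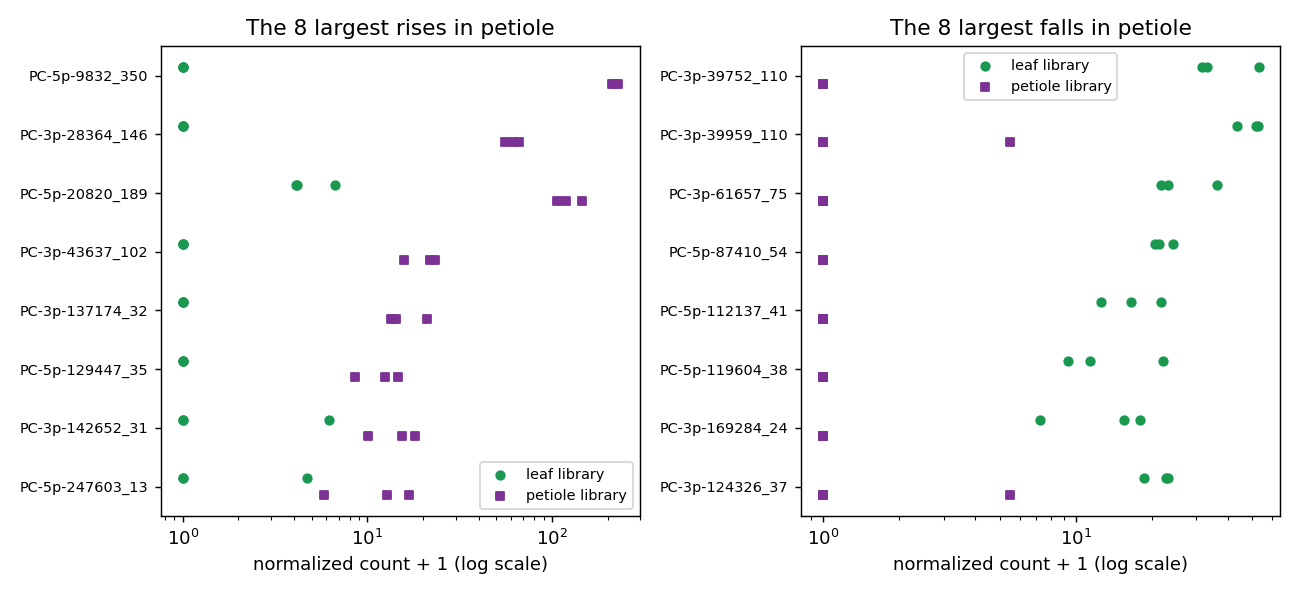
Normalized count plus 1 (log scale) of each leaf library (circles) and petiole library (squares) for the 8 largest rises and the 8 largest falls among called candidates; a value of 1 on the axis is a sequence listed at 0. The left panel runs up to 228 in petiole and the right panel no higher than 52.1 in leaf.

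In all, 5 candidates were listed at 0 in every leaf library and 6 in every petiole library. This is 11 of 75 candidates, where 7.99% of all sequences tested were so listed, 3.49% in leaf and 4.49% in petiole. Among the 224 named sequences of 20 to 22 bases, 10 were listed at 0 throughout leaf and 16 throughout petiole. Among the 177 predicted sequences of 24 bases these counts were 2 and 0. All 11 candidates were called, and each passed the mean of 5 through 1 tissue alone. Another 17 candidates were listed at 0 in some library without this pattern, and 47 were above 0 in all 6.

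Strands that could pair as a duplex were found among the candidates. Every pair of candidates was aligned without gaps as reverse complements, and pairs with at least 16 paired bases, G:U included, and 2 unpaired bases at both 3′ ends were kept, a form chosen after the sequences were seen. Of 2775 possible pairs, 7 met this, made of 13 candidates, and all 7 joined a 5p with a 3p name. With no limit on the overhang 20 pairs had at least 16 paired bases, of which 16 joined a 5p with a 3p name. Among those left out for longer overhangs were PC-5p-31486_134 with PC-3p-32697_129, and PC-5p-5304_582 with PC-3p-1484_1548. As deposited, both strands of the former pair were called higher in petiole, and both of the latter lower. Whether paired strands are separate changes was not tested. The strands of the pairs present at the highest levels are shown here, 5p before 3p, for those not printed above; the pair PC-5p-9832_350 and PC-3p-28364_146 stands in the second set.
PC-5p-3183_875: gGAAATGGagtaatgaacaaa
PC-3p-11296_311: tGATTTATccaagggttcatg
PC-5p-10607_328: aTACGGTCtcttagcttttaa
PC-3p-13429_270: aAAAGCTAagagaccgtatct
PC-5p-39609_110: aTTATGCAgttgtgaataaac
PC-3p-2474_1058: tTGTTCACaattgcatagtcc
PC-5p-69478_67: aTCTGTTTtatgcttccgcaa
PC-3p-22956_174: aCGGAAGCataaaacagatct
PC-5p-3183_875 pairs with PC-3p-1067_1995, and PC-3p-11296_311 with PC-5p-445_3612; the remaining strands pair with the neighbour in the list.

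On the deposited scale both strands of each of the 7 kept pairs lay on the same side. PC-5p-9832_350 and PC-3p-28364_146, with 16 Watson-Crick and 3 G:U pairs, were both listed at 0 in leaf. PC-5p-3183_875 had 342, 351 and 355 in leaf and 71.8, 63.8 and 84.5 in petiole, and its partner PC-3p-1067_1995 was lower in petiole too. PC-5p-39609_110 fell from 25.97 ± 3.70 to 9.99 ± 0.532 and PC-3p-2474_1058 from 297 ± 46.4 to 120.4 ± 17.5 (SD, n = 3), with log2 changes of -1.29 and -1.29. With equal totals PC-5p-39609_110 was not called, and after quantile normalization PC-3p-2474_1058 was not.

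The other pairs held their calls less firmly. PC-5p-69478_67 had 29.0, 44.3 and 40.8 in leaf and 4.73, 8.15 and 22.6 in petiole, with a limma adjusted p of 0.027. Leaving out leaf replicate 2 or 3 or petiole replicate 1 or 2 took the adjusted p to 0.071 to 0.091, and the call was also lost with equal totals (-1.04, adjusted p = 0.12) and with the trimmed mean (adjusted p = 0.068). Its partner PC-3p-22956_174 fell from 37.0 ± 4.96 to 21.2 ± 1.32, and with equal totals its log2 difference was 0.06. PC-3p-11296_311 fell from 37.1 ± 5.36 to 15.3 ± 1.63, at a log2 change of -1.22 against -0.35 for its partner PC-5p-445_3612. With equal totals PC-3p-11296_311 was not called (-0.40, limma adjusted p = 0.081) and its partner was called higher, so that the strands lay on opposite sides. PC-5p-10607_328 was at 79.9 ± 7.41 and 85.6 ± 4.13 and PC-3p-13429_270 at 112 ± 10.8 and 129 ± 15.1, with overlapping tissues and no call. With equal totals both were called higher, at 0.95 and 1.05. PC-5p-10607_328 also matched PC-3p-57909_79 (12.7 and 17.5 on average), which was not called as deposited and was called higher with equal totals, at 1.17.

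**Figure D4:**
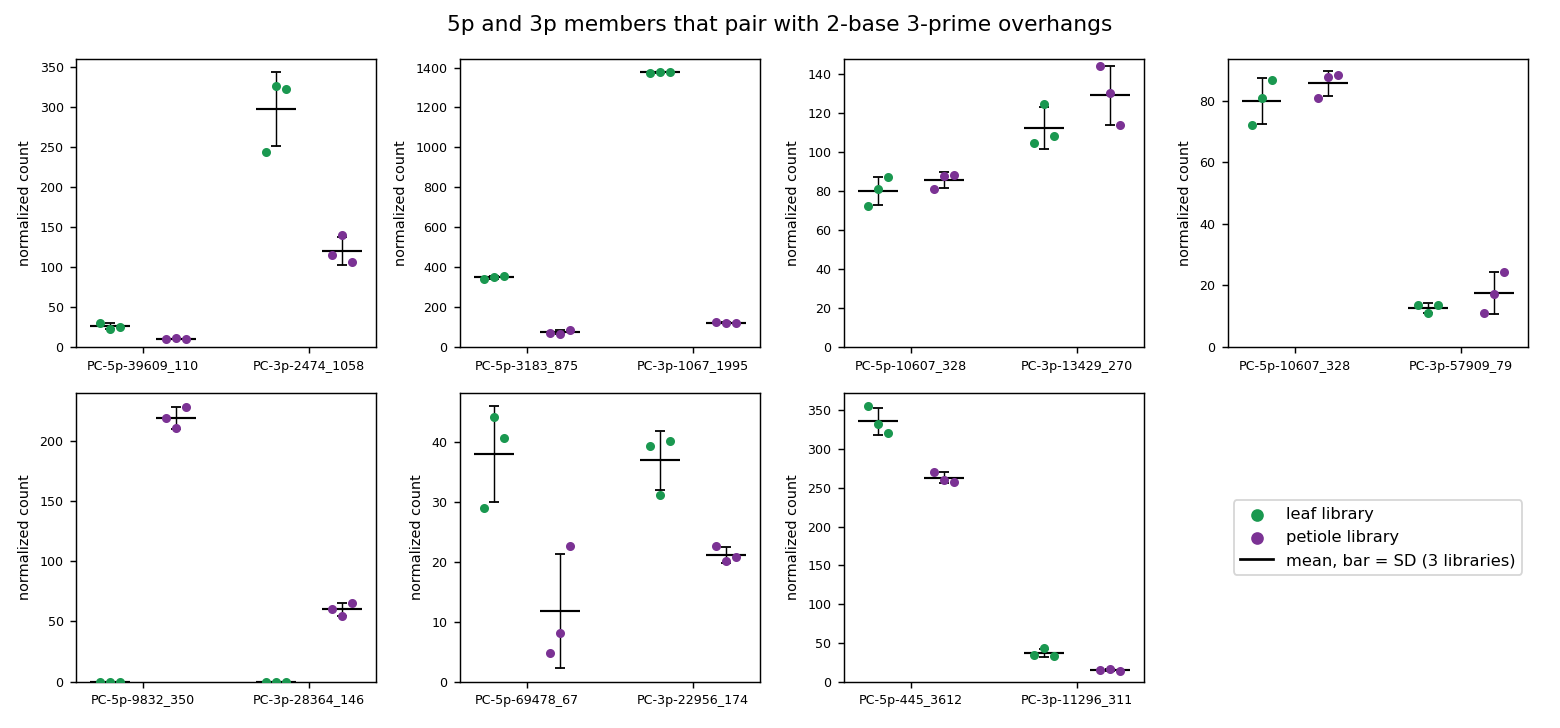
Normalized count in each library (points), with mean and SD (n = 3), of the 5p and 3p strands of the 7 pairs with 2-base 3′ overhangs, leaf in green and petiole in purple; each panel has its own axis from 0. The strands of PC-5p-9832_350 and PC-3p-28364_146 are at 0 in leaf, and the strands of PC-5p-3183_875 and PC-3p-1067_1995 are both lower in petiole.

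The ratio of 5p to 3p strand within a library, which multiplying a library by a factor cannot move but quantile normalization can, differed in some pairs. It was computed for the 6 pairs above 0 in every library. PC-5p-3183_875 over PC-3p-1067_1995 was 0.249, 0.254 and 0.258 in leaf and 0.585, 0.528 and 0.706 in petiole. PC-5p-445_3612 over PC-3p-11296_311 was 10.2, 7.69 and 9.60 in leaf and 17.4, 15.5 and 19.0 in petiole. In both the tissues did not overlap, with more of the 5p strand per 3p strand in petiole (exact permutation test, two-sided, p = 0.10, the smallest possible; 8 ratios tested, none below it). For PC-5p-39609_110 over PC-3p-2474_1058 the means in leaf and petiole were 0.0903 ± 0.0289 and 0.0837 ± 0.00732 (SD, n = 3). For PC-5p-10607_328 over PC-3p-13429_270 they were 0.715 ± 0.0802 and 0.672 ± 0.107. PC-5p-69478_67 over PC-3p-22956_174 was at 1.06 ± 0.342 and 0.567 ± 0.461, and PC-5p-10607_328 over PC-3p-57909_79 at 6.34 ± 1.02 and 5.38 ± 1.93. In each of these the petiole mean was the lower and the tissues overlapped.

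Partners with the same geometry outside the candidates were found for 4 more. PC-3p-16165_232 pairs with PC-5p-151904_28, at a mean of 4.49 just below the limit, and PC-5p-7936_421 with PC-3p-161724_26, at 2.06. PC-5p-157903_27 matched aly-MIR838-p3 over 16 bases. PC-3p-86623_54 (gCAAGTTGgccttggctccct) matched bna-miR169m over 16 bases, and its seed is that of 3 named miR169 entries of the 3p side, among them ath-MIR169e-p3 (gCAAGTTGactttggctctgt). The miR169 family targets NF-YA transcription factors, but whether PC-3p-86623_54, a 3p name, has any such target was not examined. PC-3p-86623_54 had 0, 7.30 and 6.35 in leaf and 25.5, 12.5 and 26.2 in petiole, with no overlap and a log2 difference of 2.44 ± 0.86 that did not pass (limma adjusted p = 0.055). It passed with equal totals, at 3.12, and without leaf replicate 1, at 1.45 (adjusted p = 0.033). ath-MIR169e-p3 rose from 27.9 ± 6.66 to 152 ± 14.5 (SD, n = 3).

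Candidates also lay close to named miRNAs. PC-5p-2650_1000 is 1 edit away from bra-miR400-5p, counting an added, lost or changed base as an edit, and both are shown for comparison.
PC-5p-2650_1000: tATGAGAGtattataaagtcac
bra-miR400-5p: tATGAGAGtattataagtcac
The miR400 family targets transcripts of pentatricopeptide repeat proteins in Arabidopsis. PC-5p-2650_1000 had 280.1, 298 and 318 in leaf and 52.0, 49.9 and 57.0 in petiole, a log2 change of -2.47 ± 0.10 (limma adjusted p = 3.3e-06). bra-miR400-5p went from 1479.8 ± 187 to 395 ± 62.0, a log2 change of -1.91. The candidate stood at 0.203 ± 0.0130 of bra-miR400-5p in leaf and at 0.137 ± 0.0258 in petiole, with no overlap (exact permutation test, two-sided, p = 0.10, the smallest possible). PC-3p-124326_37 (aTGATTCTtgggatttatcttt) is likewise 1 edit from bra-MIR5654a-p3_2ss6GT19TC, with which it shares a run of 21 bases and which fell from 137 ± 14.6 to 47.1 ± 4.48. No other candidate was within 3 edits of a named entry, and reads of such near-identical sequences may have been divided between entries.

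Overlaps on the same strand were found as well, by an exact run rather than by the looser pairing used above. A shared run of at least 16 bases joined 5 pairs of candidates, 10 candidates in all. Counting every other entry of the table, 22 candidates had such an overlap and 53 had none; 12 overlapped a predicted sequence of 24 bases and 3 a named entry, among them PC-3p-1067_1995, which shares 17 bases with an entry of the bol-MIR9409 family. PC-5p-5041_607 and PC-5p-50543_90, which share 21 bases, fell together, from 92.6 ± 14.4 to 11.8 ± 1.91 and from 13.5 ± 3.95 to 2.01 ± 1.76 (SD, n = 3). The call of PC-5p-50543_90 was lost without leaf replicate 3 (adjusted p = 0.060) and with equal totals. PC-3p-11296_311 and PC-3p-112922_41 share 17 bases, and the second was at 10.5 ± 4.70 and 3.49 ± 3.07 without a call. PC-3p-13429_270 and PC-3p-23410_171 share 19 bases, and neither was called as deposited, while with equal totals both were called higher, at 1.05 and 1.17.

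In a pair of overlapping candidates the forms were called in opposite directions as deposited, the second of them weakly. PC-5p-3183_875 was lower in petiole, at a log2 change of -2.25 ± 0.12 (limma adjusted p = 9.7e-06), while PC-5p-247603_13 (gAGAAATGgagtaatgaaca), which shares 18 bases with it, was called higher at 2.68 ± 0.77 from values of at most 15.8. PC-5p-247603_13 passed the mean of 5 through petiole alone, and its call was lost without any of the 4 libraries named above. PC-5p-1108_1919 (cAAAATTGagaaaatggagtg) fell from 329, 315 and 317 in leaf to 30.2, 37.4 and 44.8 in petiole, a log2 change of -3.08 ± 0.15. PC-5p-196684_19, which shares 18 bases with it, was at 2.62 ± 2.61 and 7.57 ± 4.46 and was not called as deposited. With equal totals PC-5p-196684_19 was called higher, at 2.07 (limma adjusted p = 0.042), and PC-5p-1108_1919 stayed lower, at -2.24. PC-5p-196684_19 also passed the mean of 5 through petiole alone. The difference between overlapping forms was not tested.

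The seeds of the candidates were nearly all distinct. PC-5p-36566_118 and PC-3p-61657_75 alone shared a seed, TGTGGAA, and the first was called higher in petiole while the second was listed at 0 there.

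At the lower limit of the mean, the candidates just inside were PC-5p-196684_19 at 5.09, PC-3p-75175_63 at 5.32 and PC-5p-129447_35 at 5.44. Just outside were PC-5p-77919_61 at 4.94, PC-3p-176457_23 at 4.84 and PC-5p-167436_25 at 4.76. The 48 predicted sequences below the limit had means of 0.441 to 4.94, of which 38 were of 21 bases, 24 began with A and 16 with T, and 11 were listed at 0 in every leaf and 16 in every petiole library.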

How the data were processed

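Per the labels' protocols, Trizol was used for RNA extraction, a TruSeq small RNA kit for the libraries and a HiSeq for sequencing, and reads from adapter dimers, common RNA families, repeats and low-complexity sequence were filtered out with ACGT101-miR. The sources used here name no aligner, genome build or prediction method. The signal values were normalized counts as deposited, scaled by the authors per the file headers before deposit. These values are not whole numbers, and the scaling factor is not stated. The protocols mention more libraries than the 6 used here. Library totals over unique sequences stood for 457193 to 771271 reads, after dividing by the value of 1 read; 71.5% to 76.9% of values under 60 reads came out whole within 0.02 reads, so counts could not be taken back.

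Of 1069 entries, 58 repeated a sequence with the same values and were dropped. All 601 sequences with a mean of at least 5 were tested with limma 3.58.1 in R 4.3.3 on log2(value + 1), petiole minus leaf, letting the prior variance follow the mean; the added 1 understates changes of low sequences. Shares and ratios were compared by an exact permutation test over libraries. Nothing in the labels says that replicates are separate plants, and the p-values therefore reflect sample spread alone, possibly technical. The limma step was tested on simulated data. The candidates, the lists and the rule for named sequences (the 6 most abundant, the 8 largest rises and falls without overlap, those listed at 0 in a tissue, overlapping sequences and those at the limit) were chosen with earlier results of these data known; pairs, near-named sequences and other rises were described after their values were seen. Alternatives covered the library scale, pseudocounts of 0.5 and 5, no filter, a mean of at least 50, no trend, a replicate term and leaving out each library. No genome was used, so positions, hairpins and targets are not given.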

Additional observations from a re-analysis of the deposited data

How the results depend on the processing

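The count of candidates called higher in petiole, 15 as reported, was 32 with equal library totals and 23 with a trimmed mean of log ratios. With only sequences of a mean of at least 50 in the fit, 21 candidates were tested, and 5 were higher and 13 lower. The median log2 difference over all 186 sequences of that fit was -0.55. The share of them called was not computed, so these counts say nothing particular to the candidates. Leaving out 1 library gave 10 to 15 higher and 23 to 27 lower. No other setting moved either count by over 1.5 times. Same-numbered leaf and petiole libraries had correlations of their deviations from the tissue means of 0.073, 0.0067 and 0.0076. Such deviations cannot tell whether these libraries came from the same plants. With a replicate block 12 candidates were higher and 25 lower. The sum of the candidates, petiole minus leaf, was -9181 as reported, -2959 with equal totals and -3261 without PC-3p-66_19003, and -9325 to -8998 without 1 library; the share of the library total was -0.48 points, -0.095 without that sequence and -0.51 to -0.45 without 1 library. Without that sequence the gaps in the shares of T, of 21 bases and of 5p names were -20.97, 2.80 and 16.5 points, against -11.7, 6.58 and 10.3 as reported. Without 1 library they ran from -12.0 to -11.4, from 6.07 to 7.15 and from 9.82 to 10.7. Counting values below 6 as missing gave 9 candidates missing in leaf and 14 in petiole, and all 123 predicted sequences gave 16 and 22 listed at 0; without 1 library 5 to 7 and 6 to 8 were listed at 0. A shared run of 14 or 18 bases gave 6 and 4 overlapping pairs.

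The log2 difference went from negative to positive in 14 of the 75 candidates with equal totals, in 4 after quantile normalization and in 11 with the trimmed mean, and from positive to negative in 2 after quantile normalization. Among the candidates named here, with equal totals it was 0.50 for PC-5p-445_3612, 0.68 for PC-5p-2284_1121, 0.30 for PC-3p-1484_1548, 0.54 for PC-5p-5304_582 and 0.0587 for PC-3p-22956_174. After quantile normalization it was 0.40, 0.62, 0.15 and 0.29 for the first 4, and with a trimmed mean 0.18 for PC-5p-445_3612, 0.36 for PC-5p-2284_1121 and 0.22 for PC-5p-5304_582. Equal totals and the trimmed mean lowered the difference in 0 candidates, and quantile normalization lowered it in 51. Values under 10 rest on few reads, which limits what can be told of 27 candidates.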
